A study of Mus musculus with 2 samples.

Results

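The WNT genes described here are the 50 genes on the array whose annotated symbol belongs to the Wnt, Fzd, Sfrp, Dkk or Rspo families, or is 1 of 10 further named genes (Frzb, Lrp5, Lrp6, Axin1, Axin2, Lef1, Tcf7, Nkd1, Nkd2 and Wif1), out of 16444 named genes in all. The rule uses gene symbols and no measured value, though it was set with earlier results of these data known, and each gene has 1 probe. They comprise 19 ligands, 11 receptors, 10 secreted antagonists, 4 secreted agonists and 6 intracellular or nuclear members. Sp5, a further gene of the selection rule, is not analysed here.

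RNA came from mouse embryonic stem cells that had been differentiated on OP9, a stromal line used to drive blood differentiation, and sorted for surface Flk-1, the product of Kdr and a marker of early mesoderm. In the gene-trapped sample both alleles of AU019823 were disrupted by an inserted gene trap, and in the revertant sample, the control, the labels give a genotype close to wild type. Descriptions of both samples give day 4.5, whereas the treatment protocol gives 4 days of coculture, and RNA was taken from 350000 revertant and 300000 gene-trapped cells. The samples carry different codes (cl.3 and cl.4) whose meaning the labels do not state; should they name clones, an effect of the clone cannot be told apart from one of genotype.

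WNT proteins are secreted lipid-modified ligands that bind Frizzled receptors together with the co-receptors Lrp5 or Lrp6. In the canonical branch this stabilises beta-catenin, which enters the nucleus and activates genes with the DNA-binding proteins Lef1 and Tcf7; other branches act on cell polarity and calcium. R-spondins, secreted agonists, keep Frizzled receptors on the cell surface, while Dkk, Sfrp, Frzb and Wif1 proteins block ligand or co-receptor. In the embryo, WNT signals are needed to form the primitive streak and mesoderm, the population from which Flk-1-positive cells arise.

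There was 1 array per group, so no difference has a replicate check, no p-value is given, and each value compares these libraries only. Signals are spot medians in linear intensity units, and their overall level was higher on the revertant array (median probe 47.5, against 38.6 on the gene-trapped array). Differences are therefore given on the log2 scale after background modelling and quantile normalization, as gene-trapped minus revertant. The call rule was a difference of at least 2-fold. A gene was above background where its signal exceeded the mean of the 2736 blank spots by more than 2 SD, which set a limit of 24.99 for revertant and 22.26 for gene-trapped cells. Because an offset is added before the logarithm, folds of dim genes come out compressed, and values from the authors' processed table are therefore given beside the main ones. Positive control spots, 24 of each of 2 kinds, had SDs of 0.108 and 0.0989 in their log2 ratio between arrays, a spread between spots and not between cultures. Kdr had signals of 1025 and 537 and a log2 difference of -0.65, or -2.04 with the scanner's local background subtracted. AU019823 had a log2 difference of -0.39 (486 and 297). All 10 early mesoderm markers, T and Mesp1 among them, were above background on both arrays, as were 13753 of all 16444 named genes.

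In the main setting most WNT genes differed little between gene-trapped and revertant cells. The receptor gene Fzd4 was the single one past 2-fold there, being 2.59-fold lower in gene-trapped cells. Of the 50 genes, 43 were above background on both arrays, 3 on 1 array and 4 on neither. Of all 16444 named genes, 13753 were above background on both. Of the 43, 0 passed 2-fold upward and 1 downward. Over all 13753 named genes above background on both arrays the shares were 0.334% upward, 1.08% downward and 1.41% in either direction, so a count of 1 in 43 is close to the background. The median log2 difference was 0.02 for the 43 and 0.01 for all 13753, and 33 of the 43 (76.7%) lay within 0.25 of 0, against 75.8% of all named genes. After Fzd4 the lowest values belonged to Rspo3 (-0.63) and Wnt5a (-0.63), and the highest to Dkk1 (0.46), Frzb (0.40), Wnt3 (0.39), Lef1 (0.38) and Fzd3 (0.32). In the authors' table differences were wider, and 42.2% of 45 WNT genes lay within 0.25 of 0, against 47.0% of all named genes. At least 2-fold higher there were 2 and lower 1, against 2.01% and 4.02% of all named genes.

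**Figure D1:**
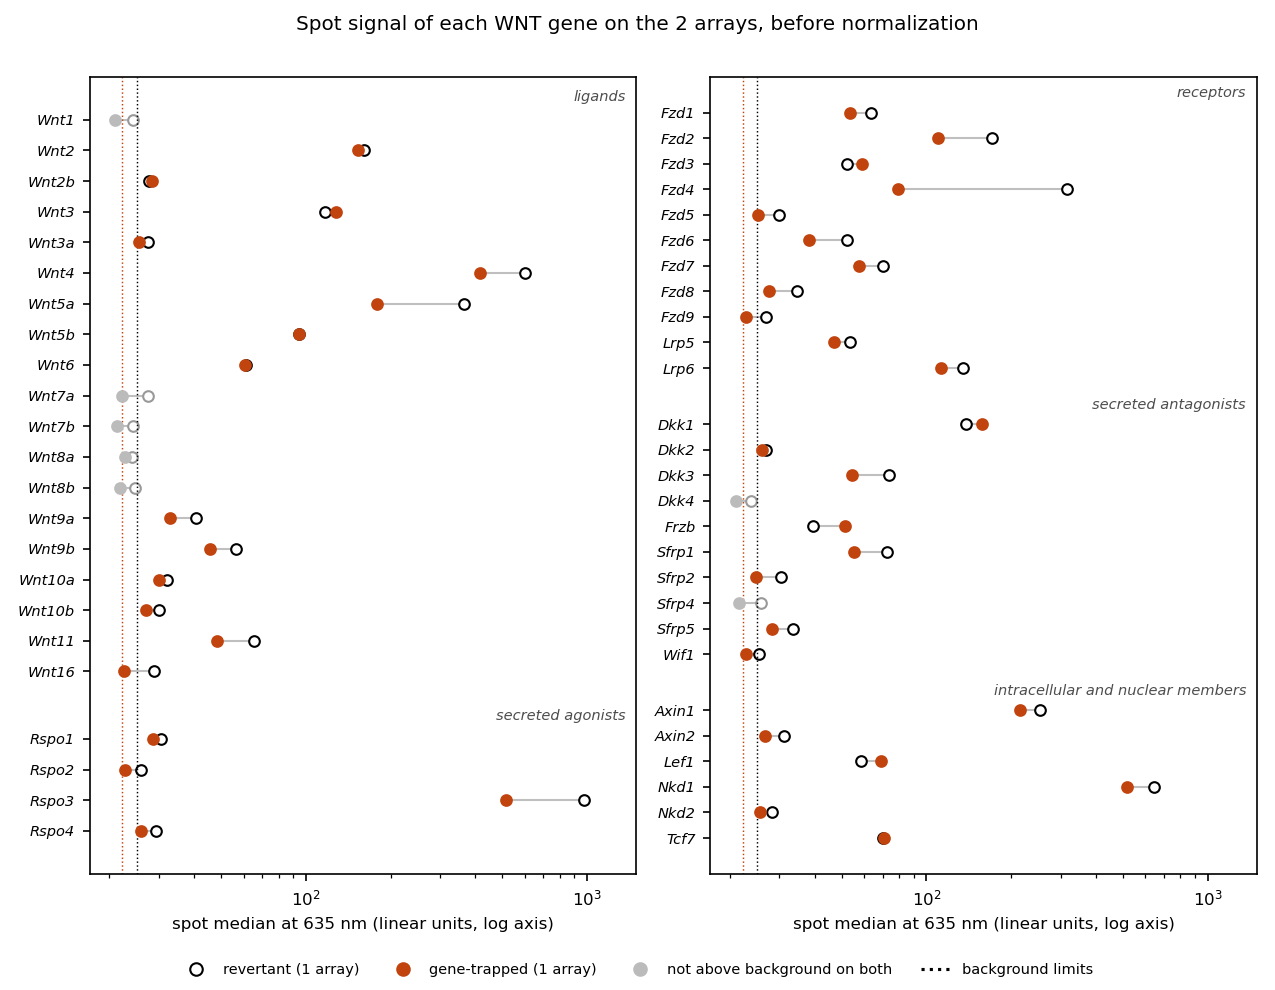
Spot median of the Cy5 channel (linear intensity on a log axis) of each WNT gene on the revertant array (open circles) and the gene-trapped array (filled circles), before normalization, with dotted lines at the background limits of 24.99 and 22.26. Fzd4, Wnt5a and Rspo3 have the widest gaps, and the genes in grey were not above background on both arrays; levels of different probes are not comparable.

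Many of the genes lay near background. By the mean of signal over limit on the arrays, 17 of the 43 (39.5%) lay below 1.5 times the limit. Another 14 (32.6%) lay between 1.5 and 3 times and 12 (27.9%) at 3 times or more. The shares of all named genes in these classes were 26.3%, 23.7% and 50.03%. In the lowest class the 17 WNT genes ran from -0.07 to 0.12, and 0 of them reached an absolute difference of 0.25, as did 0.553% of all named genes of that class. In the highest class 6 of 12 WNT genes reached 0.25, against 41.8% of all named genes there. Axin2, Wnt3a and Rspo2 are among these 17 dim genes.

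**Figure D2:**
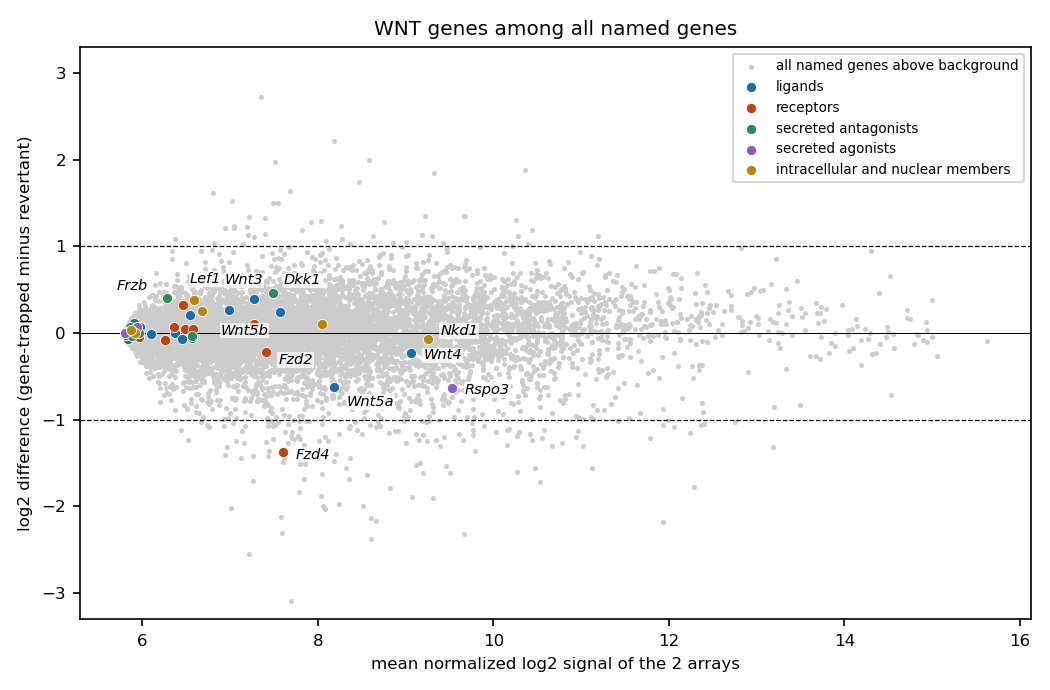
Log2 difference (gene-trapped minus revertant) against the mean normalized log2 signal of the arrays, for 13753 named genes above background (grey) and the 43 WNT genes (coloured by role), with dashed lines at 2-fold. Fzd4 at -1.38 lies below the lower line, and the other 42 lie between the lines.

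Promoter sequence was available for some of the genes, and is shown for those whose upstream stretch holds a word bound by the Lef1 and Tcf7 family. In RefSeq starts of mouse build GRCm38.p6, 33 of the 50 genes matched by symbol, with 40 start sites. The 250 bases upstream of each start were searched on both strands for 4 words, which are AACAAAG along with the related word ATCAAAG, and similarly the word TACAAAG along with the related word TTCAAAG. A word was present at 5 of 40 start sites (12.5%) and at 4874 of 32851 start sites of all genes (14.8%). A match is a description of letters and not a bound site. The 5 stretches are printed 5′ to 3′ on the strand of the gene, ending at the base before the start, with the words in capitals, followed by that of Fzd4, the gene with the largest difference, in which these letters do not occur.
Dkk1 (chr19:30549497-30549746, minus strand): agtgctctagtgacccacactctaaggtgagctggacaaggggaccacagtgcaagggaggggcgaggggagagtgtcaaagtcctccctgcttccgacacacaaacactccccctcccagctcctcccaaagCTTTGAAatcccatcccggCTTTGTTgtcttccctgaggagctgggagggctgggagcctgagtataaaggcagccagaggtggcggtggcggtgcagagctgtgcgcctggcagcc
Lef1 (chr3:131156044-131156293, plus strand): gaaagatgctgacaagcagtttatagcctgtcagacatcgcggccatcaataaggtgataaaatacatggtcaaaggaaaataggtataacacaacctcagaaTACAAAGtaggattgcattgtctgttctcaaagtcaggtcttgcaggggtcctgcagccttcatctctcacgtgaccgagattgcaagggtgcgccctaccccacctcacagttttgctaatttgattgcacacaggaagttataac
Wnt5b (chr6:119449387-119449636, minus strand): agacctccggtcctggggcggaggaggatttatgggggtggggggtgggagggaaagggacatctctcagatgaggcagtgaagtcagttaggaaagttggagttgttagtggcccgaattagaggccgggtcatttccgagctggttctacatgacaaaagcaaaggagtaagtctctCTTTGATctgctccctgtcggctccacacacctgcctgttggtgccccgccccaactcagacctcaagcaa
Fzd7 (chr1:59481897-59482146, plus strand): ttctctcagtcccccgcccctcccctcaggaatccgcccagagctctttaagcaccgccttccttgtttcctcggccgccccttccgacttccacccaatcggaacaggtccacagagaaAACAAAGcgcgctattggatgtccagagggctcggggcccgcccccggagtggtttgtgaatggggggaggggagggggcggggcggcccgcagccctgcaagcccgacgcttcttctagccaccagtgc
Wnt11 (chr7:98834862-98835111, plus strand): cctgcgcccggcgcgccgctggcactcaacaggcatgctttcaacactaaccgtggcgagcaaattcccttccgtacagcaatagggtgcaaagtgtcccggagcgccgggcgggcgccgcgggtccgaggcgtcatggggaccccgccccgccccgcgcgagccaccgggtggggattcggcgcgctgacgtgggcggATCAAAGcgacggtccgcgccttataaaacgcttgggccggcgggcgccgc
Fzd4 (chr7:89404116-89404365, plus strand): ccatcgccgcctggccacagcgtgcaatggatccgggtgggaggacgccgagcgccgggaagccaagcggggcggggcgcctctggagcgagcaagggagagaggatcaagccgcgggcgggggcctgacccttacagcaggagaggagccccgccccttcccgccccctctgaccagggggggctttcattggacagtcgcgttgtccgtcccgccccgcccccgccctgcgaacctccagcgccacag

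Dkk1 holds 2 words, the first (CTTTGAA) beginning 117 bases before the start and the other (CTTTGTT) beginning 98 bases before it, each the reverse strand of a searched word. Lef1 holds its word at 1 of 4 annotated starts, Wnt5b at 1 of 3 and Wnt11 at 1 of 2. The log2 differences of these 5 genes were 0.46 for Dkk1, 0.38 for Lef1, 0.27 for Wnt5b, 0.04 for Fzd7 and -0.07 for Wnt11. The genes with a word thus included both higher and near-zero values.

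Among the ligands, Wnt5a was lower and Wnt3 higher in gene-trapped cells, neither by 2-fold. Wnt5a, a ligand of the non-canonical branch, had signals of 367 (revertant) and 179 (gene-trapped), which gave -0.63 on the log2 scale (1.55-fold lower; 1.66-fold lower in the authors' table). Among the 500 genes nearest to it in signal, the central 90% of differences ran from -0.70 to 0.62, and Wnt5a lay at percentile 6.6. Its difference stayed between -0.81 and -0.62 in all 11 alternative settings. Wnt3, which is needed to form the primitive streak, gave 117 and 128 (0.39, 1.31-fold higher; 1.48-fold in the authors' table). It lay at percentile 92.0 of its neighbours, inside their central 90%, and had 0.23 with the local background subtracted.

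Wnt4 had signals of 602 and 416 and a log2 difference of -0.23, and Wnt2 161 and 153 (0.25). Wnt5b, a close relative of Wnt5a, had nearly equal signals of 94.9 and 94.4, which after normalization gave 0.27, the opposite sign to Wnt5a. Wnt6 had 61.3 and 60.7 (0.21). Wnt11, like Wnt5a a non-canonical ligand, had 65.2 and 48.3 (-0.07), while Wnt9a (-0.02) and Wnt9b (0.00) were level on the normalized scale. Of the 14 ligands above background on both arrays, 9 lay above 0 and 5 below, with a median of 0.04.

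Several ligands gave signals too close to background for a size to be read. Wnt3a, which acts in later mesoderm, had 27.3 and 25.4 (0.05), Wnt10a 32.1 and 29.9 (0.07), and Wnt10b 30.1 and 27.1 (0.03). Wnt2b had 27.7 and 28.3 (0.12) and Wnt16 28.8 and 22.6 (-0.07). In the authors' table these last genes were 2.05-fold higher and 1.95-fold lower, respectively; the sign of Wnt16 turned under median and 75th percentile scaling. Wnt7a was above background on the revertant array only (27.5 and 22.2), which bounds it at least 1.03-fold lower, and Wnt8a on the gene-trapped array only (24.03 and 22.6), at least 1.01-fold higher. These bounds set the measured array against the lowest signal above background on the other. Wnt1, Wnt7b and Wnt8b were not above background on either array.

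Among the receptors, Fzd4 stood apart from the rest of the family. Fzd4, which is also the receptor of the vascular ligand Norrin, had signals of 316 (revertant) and 78.9 (gene-trapped), which gave -1.38 on the log2 scale (2.59-fold lower). It lay at percentile 1.0 of its 500 neighbours in signal, whose central 90% ran from -0.64 to 0.54, and at percentile 0.356 of all 13753 genes. In the authors' table it was 3.84-fold lower (193 and 50.2), where 4.02% of 14203 genes were at least 2-fold lower and 6.03% were 2-fold apart in either direction. With the scanner's local background subtracted the difference was -0.63, which is below 2-fold, and in the other 10 settings it stayed past 2-fold.

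The other Frizzled genes and the co-receptors lay between -0.22 and 0.32. Fzd3 had 52.3 and 59.0 (0.32; 1.69-fold higher in the authors' table) and Fzd2 171 and 110 (-0.22). Subtracting the local background left 0.13 for Fzd3 and -0.02 for Fzd2. Fzd7, a Frizzled of pluripotent cells and early mesoderm, had 70.2 and 57.8 (0.04), Fzd1 63.6 and 53.3 (0.05) and Fzd6 52.0 and 38.3 (-0.08). The co-receptor genes Lrp6 (134 and 113) and Lrp5 (53.7 and 46.8) had 0.11 and 0.07. Fzd5 (30.0 and 25.1), Fzd8 (34.5 and 27.6) and Fzd9 (26.8 and 22.7) were near background, with differences from -0.04 to -0.02. The median of the 11 receptors was -0.02, with 5 above 0 and 6 below, and it turned to 0.14 under 75th percentile scaling, a setting that moves the median of all genes to 0.15.

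Markers of other cell types differed in both directions. Of the endothelial and blood markers, 9 of 10 were on the array and 8 above background on both arrays, 7 of these below 0. At least 2-fold lower were 3 (Flt1 -1.53, Tek -1.31, Pecam1 -1.27), where the share over all named genes is 1.08%. The summed normalized signal of the list was 2460 in revertant and 1223 in gene-trapped cells, with Cdh5 not above background on both arrays. Of 20 stromal and fibroblast markers 18 were above background, 12 of these below 0 and 3 at least 2-fold lower (Col5a1 -1.61, Col1a1 -1.49, Acta2 -1.30). The other 6 lay above 0, with Bgn the highest at 0.55. The summed signal of the 20 was 7372 and 4421, with Dcn and Prrx1 not above background on both arrays. The part of these cells in the differences of Fzd4, Wnt5a and Rspo3 was not tested, and in sorted bulk RNA fewer cells of a type and less RNA per cell cannot be told apart. Early mesoderm markers had a summed signal of 3804 and 5677, with 7 of 10 above 0. Of the neuroectoderm markers 6 were above background on both arrays, 5 of these above 0. Otx2 had 1.29, Zic2 0.58 and Fabp7 0.47, and Tubb3 was below 0 at -0.42. The summed signal of the list was 769 and 1062, with Hesx1, Pax6 and Six3 not above background on both arrays. Of the endoderm markers 4 were above background on both arrays, 2 of these above 0, and Afp, Apoa1, Cer1, Foxa1 and Ttr were not. In every list the summed normalized signal includes the offset for each gene. For endoderm it was 1239 and 1362, whereas the sum before normalization was 1039 and 990. Gata6, the brightest endoderm marker, had 695 and 712 (0.26). With the local background subtracted Fabp7 had -0.07 and Tubb3 0.14.

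Among the secreted antagonists, Dkk1 and Frzb were higher on the gene-trapped array in the main setting, neither by 2-fold, and the rest were level or dim. Dkk1, which blocks Lrp5 and Lrp6 and is itself induced by WNT signals, had 139 and 158 (0.46, 1.38-fold higher). In the authors' table it was 1.54-fold higher. It lay at percentile 90.4 of its neighbours, inside their central 90% (-0.72 to 0.53). Frzb, a soluble Frizzled-like protein that binds WNT ligands, had 39.7 and 51.4 (0.40), at percentile 98.8 of neighbours whose central 90% ran from -0.34 to 0.22. In the authors' table Frzb was 2.36-fold higher, and 2.01% of all genes were at least 2-fold higher there. Frzb and Wnt2b were the WNT genes past 2-fold upward in that table. Subtracting the local background left 0.14 for Dkk1 and 0.09 for Frzb.

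Dkk3, a divergent member of the Dkk family, had 73.5 and 54.5 (-0.06) and Sfrp1 72.5 and 55.1 (-0.03). Sfrp2 (30.3 and 24.7), Sfrp5 (33.4 and 28.1), Dkk2 (26.8 and 25.9) and Wif1 (25.4 and 22.9) were near background, with differences from -0.03 to 0.07. Sfrp4 was above background on the revertant array only (25.7 and 21.5), at least 1.01-fold lower, and Dkk4 on neither. The median of the 8 antagonists above background on both arrays was 0.00.

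Of the agonists, Rspo3 was clearly above background and lower in gene-trapped cells. Rspo3, the R-spondin needed for development of blood vessels, had 975 and 515 (-0.63, 1.55-fold lower; 1.48-fold in the authors' table). It lay at percentile 8.0 of its neighbours, whose central 90% ran from -0.79 to 0.63, and its difference stayed between -0.74 and -0.47 in the 11 alternative settings. Rspo1 (30.6 and 28.6), Rspo2 (25.9 and 22.7) and Rspo4 (29.2 and 25.9) were near background, with differences within 0.07 of 0. Of the genes of R-spondin receptors, which are no members of the selection, Lgr6 had 91.1 and 43.8 (-0.48), Lgr5 69.9 and 34.2 (-0.43) and Lgr4 60.2 and 41.9 (-0.13). In the authors' table Lgr5 had a log2 difference of -1.37 and Lgr6 of -1.16, whereas Lgr5 had 0.05 with the local background subtracted.

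Among the intracellular and nuclear members, Lef1 and Tcf7 had positive values, and Nkd1 and Axin1 lay nearer to 0. Axin2 and Nkd2 were too close to background for a size to be read. Lef1 had 58.4 and 68.7 (0.38, 1.30-fold higher; 1.76-fold in the authors' table), at percentile 96.8 of its neighbours. Tcf7, its close relative, had 70.0 and 70.8 (0.25; 1.39-fold in the authors' table), at percentile 88.8. Neither reached 2-fold in any setting, and subtracting the local background left 0.14 for Lef1 and 0.06 for Tcf7. Nkd1, a Dishevelled-binding inhibitor that WNT signals induce, had 647 and 516 (-0.07), and Axin1, the scaffold of the beta-catenin destruction complex, 253 and 215 (0.10). Axin2, the inducible relative of Axin1 and a widely used readout of canonical signalling, gave 31.0 and 26.6 (0.00), the first being 1.24 times its background limit. Nkd2 was similarly dim with 28.2 and 25.5 (0.03).

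**Figure D3:**
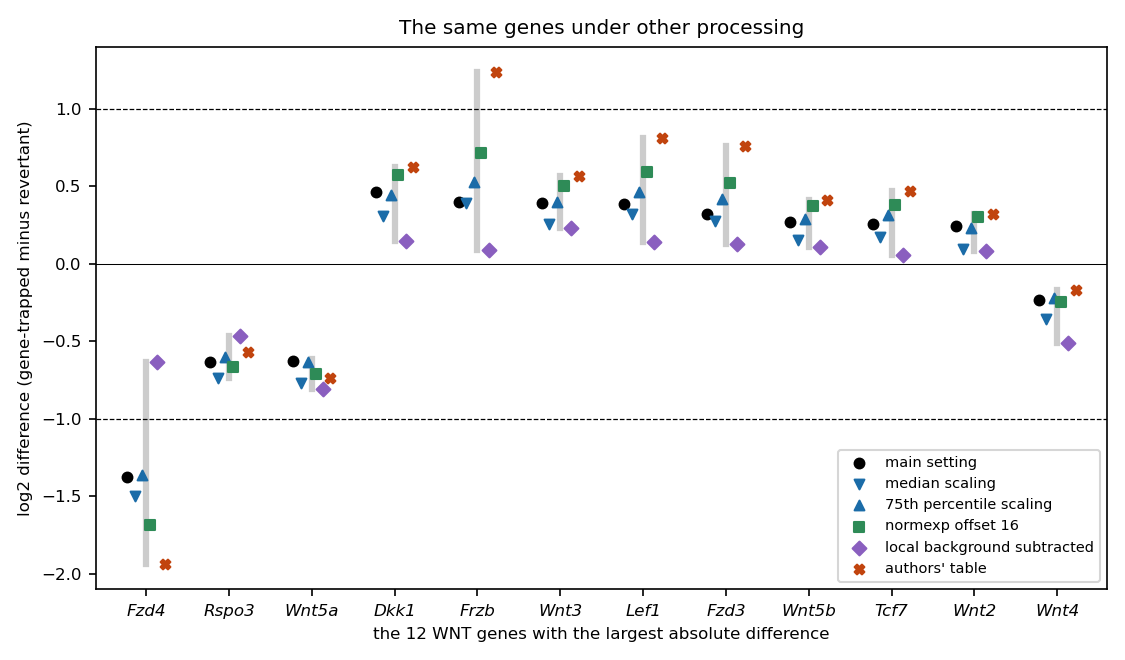
Log2 difference (gene-trapped minus revertant) of the 12 WNT genes with the largest absolute difference, in the main setting and 5 alternatives, with grey bars over all settings and dashed lines at 2-fold. Every gene drawn keeps its side of 0, and the authors' table places Frzb above 2-fold while local background subtraction brings Fzd4 to -0.63.

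Other genes of the pathway were read from 7 lists chosen with earlier results of these data known. Of 99 such genes on the array 91 were above background on both arrays, with a median of 0.01, that of all named genes. Past 2-fold were 2 upward and 1 downward, against shares of 0.334% and 1.08% over all named genes. In the list of ligand release, Lrpap1, a chaperone of LRP family receptors, had 1800 and 684 (-1.11, 2.17-fold lower), and Gpr177, the older name of the ligand carrier Wls, 2380 and 1500 (-0.39). Mesdc2, a chaperone for Lrp5 and Lrp6, had 0.28. Among co-receptors the vacuolar ATPase-associated gene Atp6ap2 had -0.62, and 0 of 14 reached 2-fold. Of 7 other inhibitors above background 0 reached 2-fold, with Igfbp4 at 0.49, the Dishevelled-binding Dact1 at 0.46 and Tpbg at 0.31; Igfbp4 had -0.05 with the local background subtracted.

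In the main setting the core of the signalling machinery was about as level as all named genes. Within 0.25 of 0 lay 78.9% of the destruction complex and Dishevelled list and 84.6% of the nuclear partners. The planar polarity and calcium list had 78.6% there, and all named genes 75.8%. Of all named genes 1.41% were at least 2-fold apart, so counts of 0 in lists this short are close to the background. In the list of the beta-catenin destruction complex and Dishevelled, 0 of 19 genes reached 2-fold, with beta-catenin itself (Ctnnb1, 2437 and 2386) at 0.26, the casein kinase gene Csnk1d at 0.47 and the Axin-modifying enzyme gene Tnks at -0.65. With the local background subtracted Tnks had 0.64, Csnk1d 0.87 and Ctnnb1 -0.16. In that setting Csnk1a1 had 0.91, against 0.16 in the main setting, and Ppp2r1a had -0.66, against -0.07. Nuclear partners of beta-catenin ran from -0.30 (Ctbp1) to 0.13 (Pygo2), with 0 of 13 past 2-fold. Planar polarity and calcium genes ran from -0.32 (Daam1) to 0.29 (Scrib, which had -0.07 with the local background subtracted), with 0 of 14 past 2-fold.

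Known WNT targets of early mesoderm included both pathway genes that passed 2-fold upward. Of 20 above background on both arrays, 14 lay above 0 (70.0%, against 53.3% of all named genes), and 2 passed 2-fold upward and 0 downward, against 0.334% and 1.08% of all named genes. The median was 0.15, against 0.01 for all named genes. Over the 11 alternatives the median ran from 0.07 to 0.28. Mixl1, a streak homeobox gene, had 181 and 669 (1.99), and Tdgf1, a Nodal co-receptor, 707 and 2249 (1.88). The brachyury gene T had 0.76 and Snai1, a repressor active in the epithelial to mesenchymal transition, 0.60. Of the 6 below 0, Hoxb1 had -0.49 and Lgr5, which also stands in the co-receptor list, -0.43. Jun had 4593 and 2751 (-0.43) and was lower in all 11 alternatives. With the local background subtracted Jun had -1.78, whereas Hoxb1 had 0.48 and Lgr5 0.05. Mixl1, T, Mesp1, Eomes and Tbx6 also stand among the early mesoderm markers, whose summed signal was 2286 and 3036 without these genes. The markers left in that sum went both ways, with Etv2 at 1.30 and Mesp2 at 0.19. Below 0 were Kdr (-0.65), Hand1 (-0.44) and Pdgfra (-0.02). With the local background subtracted Kdr had -2.04, Hand1 0.14 and Pdgfra -0.30. Tdgf1 also stands among the pluripotent markers, of which 7 were above background on both arrays, 5 of them above 0. The summed signal of that list was 2122 and 3875 with Tdgf1, and 1439 and 1358 without it. Among its other genes Dppa5 had 1.21 (2.31-fold higher), but -0.08 with the local background subtracted. Klf4 had -0.36, and -1.57 with the local background subtracted. Fgf4 was the pluripotent marker on the array that was not above background. The part of these cells in the list's median was not tested.

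**Figure D4:**
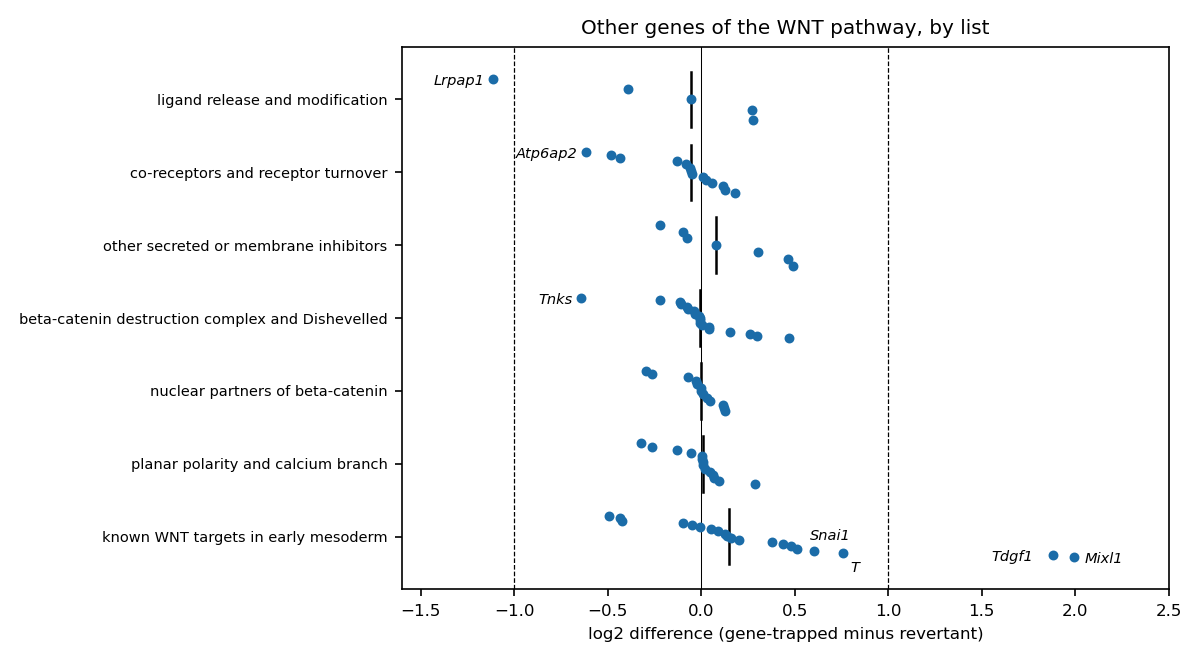
Log2 difference (gene-trapped minus revertant) of the other WNT pathway genes above background on both arrays, 1 point per gene, by list, with a black line at each list's median and dashed lines at 2-fold. Mixl1 (1.99) and Tdgf1 (1.88) lie above 2-fold and Lrpap1 (-1.11) below it; the y position within a list has no meaning.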

How the data were processed

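Gene expression was measured in 1 revertant and 1 gene-trapped sample on one-colour oligonucleotide arrays labelled with Cy5. Per the file headers, the deposited scanner files hold a linear intensity, the spot median of the Cy5 channel, read at 3 gains and joined by least squares, without background subtraction. A processed intensity table deposited by the authors has nearly equal column medians; how it was made is not given in the sources used here. Intensities were corrected with normexp (offset 50) in limma 3.58.1 (R 4.3.3) and, without control spots and 2 flagged probes, quantile-normalized and put on the log2 scale. The procedure was tested on simulated data with changes placed in bright probes only, so recovery of changes in dim genes was not tested. Tables used pandas 2.3.3 under Python 3.11.15. Of 23471 probes, 16629 have 1 symbol in the platform annotation, 6842 none and 0 several; a gene is represented by its brightest probe by mean spot median. List genes were matched by symbol or RefSeq synonym. A probe above background on 1 array has a bound only. With 1 array per group no test was made. The members and lists were chosen with earlier results of these data known. Named are all members, AU019823, Kdr and, per list, up to 4 genes with the largest absolute difference. Lgr4, Mesp1, Eomes, Tbx6, Mesp2, Hand1, Pdgfra, Bgn, Hoxb1, Jun, Csnk1a1, Ppp2r1a and Lgr5 as a target fall outside that rule. They were named after their values were seen. Precision is limited by having 1 array per group. The 11 alternatives were median and 75th percentile scaling, an offset of 16, cyclic loess, spot position correction, local background subtraction, uncorrected signals, the authors' table, no filter, a stricter filter (5 SD) and the mean of a gene's probes.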

Additional observations from a re-analysis of the deposited data

Results flagged for a closer look

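Around the spots of the WNT genes, the scanner's column of local background, which is outside the main measurement, lay above its own level at blank spots. Its median over the 43 genes above background on both arrays was 33.9 for revertant and 30.0 for gene-trapped cells. Blank spots had medians of 14.2 and 15.6, respectively. The highest values among the 43 were at Rspo3, with 608 and 233.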

How the results depend on the processing

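No paired analysis was possible because there is only 1 array in each group. Of the 43 genes above background on both arrays, 22 kept their sign in every alternative that gave a value. Of these, 17 were higher and 5 lower (Fzd4, Rspo3, Wnt5a, Wnt4 and Fzd2). Because 75th percentile scaling raised the median of all genes, small negative values turned sign more readily than small positive ones. The split of 17 and 5 is therefore no measure of a lean. The largest absolute difference among the other 21 was 0.11. Genes above 0 numbered 25 of 43 in the main setting, 29 with median scaling and 37 with 75th percentile scaling. The last setting moved the median of all genes to 0.15 and that of the 43 to 0.20, of ligands to 0.24, receptors 0.14, antagonists 0.22, agonists 0.24 and intracellular members 0.23. In the authors' table the receptor median was -0.20 and the intracellular median 0.21. There 2 WNT genes were at least 2-fold higher (Frzb and Wnt2b), and 4 other pathway genes were higher and 3 lower. Over all named genes in that table the shares were 2.01% higher and 4.02% lower. With the local background subtracted 0 WNT genes and 2 other pathway genes were at least 2-fold lower. Apart from the offset, which narrows folds of dim genes by construction, the cause was not tested. For 17 of the 43 genes, signals below 1.5 times the limit restrict what can be read from a difference.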
